A study of Mus musculus with 7 samples.

Results

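The paired immunoglobulin-like receptors (PIR), with the neighbouring receptors Lilra5 and Lair1, are surface receptors of white blood cells whose genes lie in the leukocyte receptor complex of mouse chromosome 7. They were described here by 7 genes taken by name, Pirb, Pira1, Pira2, Gm14548, Gm15448, Lilra5 and Lair1, out of 20343 rows of the deposited count table. The 7 genes were selected on their measured levels in these same hearts, with the fold changes and adjusted p-values of transferred against control hearts in view. Their values in that comparison are therefore a description and support nothing further. All 7 passed the filter on low counts.

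Messenger RNA was sequenced from the apical myocardium of 7 NSG-DR1 mice (strain label NSG-DRB1*0101), in a series about terminally differentiated CD4+ T cells and inflammation of the ageing heart. The control group consists of 4 mice without treatment. In the transferred group are 3 mice whose hearts were taken 6 weeks after a transfer of human CD4+ T cells. All 7 mice share the NSG background, which lacks mature T, B and natural killer cells of its own but keeps myeloid cells, and a human HLA-DR1 transgene. The labels give no age, sex, litter or donor of the T cells, and nothing in them says how the animals were housed together, so the p-values below measure the spread between these 7 samples. Over the analysed part of the table (chromosomes 1 to 7 and the start of chromosome 8), column totals ranged from 16402194 to 25190580 counts, and the level given by 3 counts ranged from 0.115 to 0.189 CPM. Summed cardiomyocyte markers, among them titin and the cardiac troponins, lay between 68748 and 75196 CPM in control hearts and between 70118 and 80034 CPM in transferred hearts. Of 8 listed T and natural killer cell markers, Ncr1 and Klrb1c had no count in any heart, 3 others stayed under the filter on low counts, and Cd4, Cd28 and Cd247 passed it with overlapping groups, Cd28 at 21.9 to 31.4 CPM. Cd2 had at most 1 count in a control heart and 4, 3 and 5 counts in transferred hearts 1 to 3. CPM is the count of a gene divided by the column total on the usual fixed scale, with the total adjusted by TMM (trimmed mean of M values).

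PIR receptors come in opposing forms that share nearly the same extracellular immunoglobulin domains. PIR-B, encoded by Pirb, carries inhibitory tyrosine motifs in its cytoplasmic tail that recruit phosphatases, whereas the PIR-A receptors have a short tail and signal through the Fc receptor gamma chain, encoded by Fcer1g. Both bind class I molecules of the major histocompatibility complex, and they are known from macrophages, neutrophils, dendritic cells and B cells. LAIR-1, encoded by Lair1, is an inhibitory receptor for collagens, and Lilra5 encodes an activating type of receptor.

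The near identity of the PIR genes extends to the bases in front of them, which are shown beside windows of Lilra5 and Lair1. All 7 genes were found in the RefSeq promoter table (GRCm38.p6). The table gives 1 start for each gene, which need not be the outermost one. The start used for Lair1 lies well inside the span of its row, and its other starts were not examined. The 250 bases before each such start are printed in the direction of the gene, with capitals marking GAGGAA or its reverse complement TTCCTC, the core of a site for PU.1, a transcription factor of myeloid cells.
Pirb, chr7:3720383-3720632, minus strand: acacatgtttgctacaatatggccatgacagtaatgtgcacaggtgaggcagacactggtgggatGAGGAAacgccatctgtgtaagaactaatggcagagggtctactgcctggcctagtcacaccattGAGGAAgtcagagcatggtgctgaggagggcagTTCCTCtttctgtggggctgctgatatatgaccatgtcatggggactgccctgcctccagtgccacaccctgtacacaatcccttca
Pira1, chr7:3739918-3740167, minus strand: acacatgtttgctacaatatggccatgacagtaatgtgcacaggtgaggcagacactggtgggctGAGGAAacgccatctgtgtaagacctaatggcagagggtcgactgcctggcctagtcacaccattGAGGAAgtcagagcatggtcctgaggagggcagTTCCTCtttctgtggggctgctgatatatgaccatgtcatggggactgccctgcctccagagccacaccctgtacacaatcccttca
Lilra5, chr7:4237504-4237753, plus strand: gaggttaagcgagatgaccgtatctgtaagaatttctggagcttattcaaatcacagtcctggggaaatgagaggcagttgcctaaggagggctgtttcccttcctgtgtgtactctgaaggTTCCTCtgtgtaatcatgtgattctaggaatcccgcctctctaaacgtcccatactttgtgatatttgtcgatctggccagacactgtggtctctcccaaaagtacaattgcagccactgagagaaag
Lair1, chr7:4063205-4063454, minus strand: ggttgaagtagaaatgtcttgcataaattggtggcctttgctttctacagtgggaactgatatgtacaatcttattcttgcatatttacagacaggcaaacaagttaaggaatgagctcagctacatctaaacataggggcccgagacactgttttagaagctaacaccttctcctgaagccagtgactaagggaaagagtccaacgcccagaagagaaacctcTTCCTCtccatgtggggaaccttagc

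The promoters of Pirb and Pira1 differed at 5 of 250 aligned bases. Those of Pira1 and Pira2 were identical over the 222 bases that their windows share. Pirb and Gm14548 were identical at 96.4% of 247 aligned bases, and Pirb and Gm15448 at 99.5% of 187. Against Lilra5, Pirb aligned over only 57 bases with 71.9% identity, and against Lair1 over 17 bases. Pirb, Pira1, Pira2 and Gm14548 each held 3 matches to GAGGAA on either strand, Gm15448 held 4, and Lilra5 and Lair1 held 1 each. Of 27025 promoters of the same length, 23.1% held at least 1 match and 0.437% held at least 3, but the PIR promoters are copies of each other and not separate instances. The interferon-stimulated response element, searched on both strands as GAAA, any 2 bases and GAAA again, was found in none of the 7 windows and in 3.04% of all promoters. A match is a string of letters and not a measured binding site, and no match says only that the letters are not in this window.

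The likeness of the transcripts also decided how reads could be assigned. Transcripts of GENCODE M21 were cut into every possible stretch of 75 bases, the read length, and each stretch was looked for in all other transcripts. Of the stretches of Pira2, 11.7% occurred in no other gene, and the share was 15.5% for Pira1 (matched by position to the GENCODE gene Gm15922), 40.7% for Gm14548, 62.4% for Gm15448 and 68.9% for Pirb. Pira1 and Pira2 were the closest pair, with 77.9% of the stretches of Pira1 present in Pira2. The pseudogenes Gm15930 and Gm15931, which are not among the rows analysed, shared 1525 and 396 of the stretches with the PIR family. For Lair1 the share found in no other gene was 99.3% and for Lilra5 100%. Reads came in pairs, and a pair spans more than 75 bases, so a pair can be assigned where 1 stretch cannot. The shares describe GENCODE transcripts, however, and not the exons that were counted. The counted row of Pirb held 2737 exon bases, against 3824 bases in its GENCODE transcript. Its share therefore need not be a lower limit of what can be assigned. Sequence outside annotated transcripts was not searched. The reference is from C57BL/6J and the mice are of NOD ancestry, and differences between these strains in this complex were not examined.

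A pair of coding stretches of Pirb, printed from the GENCODE transcript Pirb-201 in the direction of the gene, shows both ends of this range. The first one, coding bases 1708 to 1782 in exon 8 (chr7:3716107-3716181, minus strand), was identical in 7 of the 8 PIR family rows of the table, all but Gm10693, and also in the pseudogene Gm15931. The second one, coding bases 2449 to 2523 in exon 15 (chr7:3712654-3712728, minus strand), ends just before the stop codon and was found in Pirb alone.
Shared coding stretch: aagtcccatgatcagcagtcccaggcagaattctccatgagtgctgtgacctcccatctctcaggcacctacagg
Last coding stretch of Pirb: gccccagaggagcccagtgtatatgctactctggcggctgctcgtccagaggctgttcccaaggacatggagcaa

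**Figure D1:**
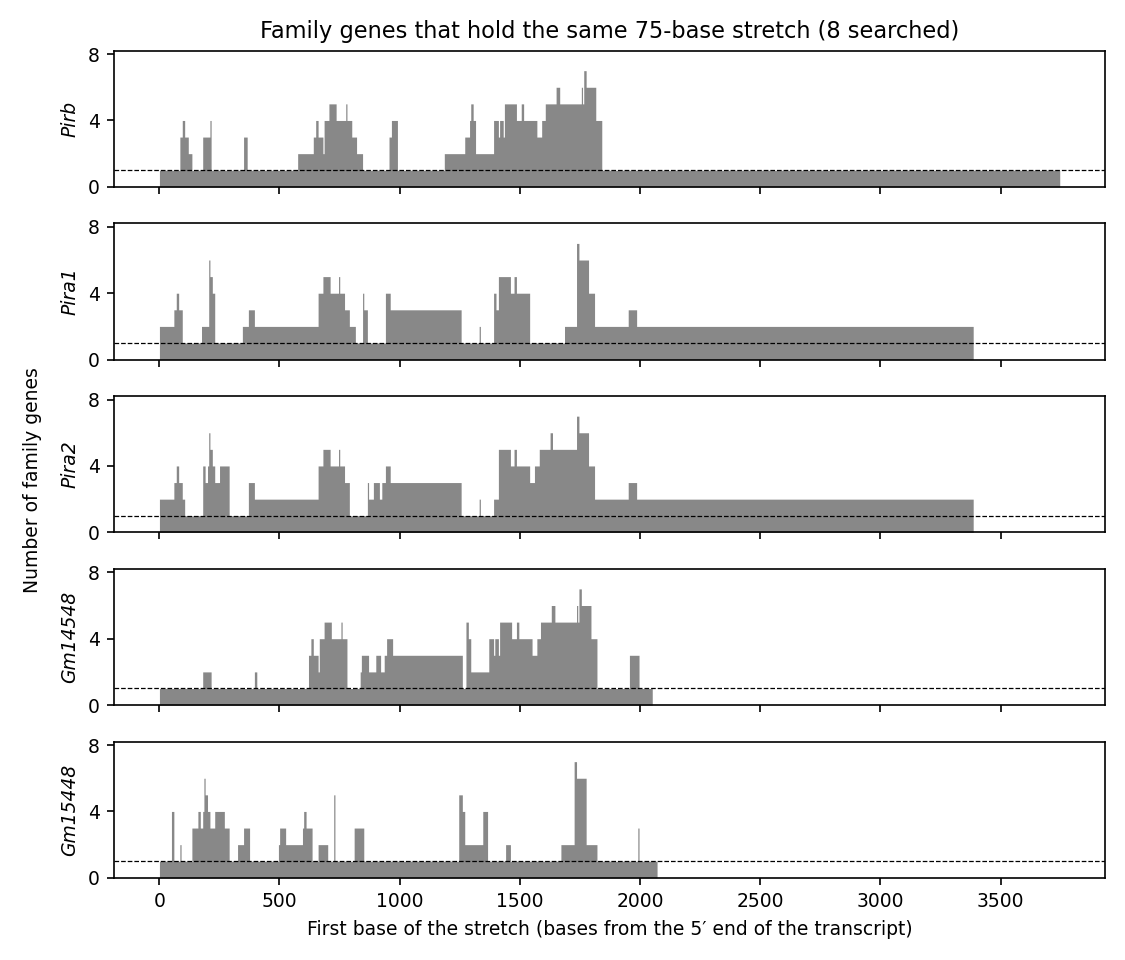
Number of PIR family genes (of 8) that hold the identical 75-base stretch, by the first base of the stretch along 1 transcript each of Pirb, Pira1, Pira2, Gm14548 and Gm15448. The dashed line marks 1, a stretch found in that gene alone among the 8. A narrow peak reaches 7 genes in each of the 5 transcripts, whereas the 3′ part of Pirb stays at 1 and the 3′ parts of Pira1 and Pira2 stay at 2. The Pirb transcript drawn, of 3824 bases, is longer than the 2737 exon bases counted for Pirb.

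The deposited values carried the trace of this sharing. Fractional values were present in 7 of 7 hearts for Pirb and Pira1 and in 6 of 7 for Pira2, Gm14548 and Gm15448, and every fraction was a multiple of 1/6 within 0.005. Lilra5 and Lair1 had whole values in all 7 hearts. No member overlapped another row of the table, so overlap between genes does not enter these values. Summed over the 5 PIR genes, the counts were whole in 1 of 7 hearts. When the neighbouring copies Lilra6 (older name Pira3), Gm10693 and Gm15925 were added, the sum was whole in 7 of 7 hearts, within 0.01, at 699.99, 716, 852.01 and 628.01 counts in control hearts and 1497, 3163.99 and 1697.01 counts in transferred hearts. Of the 255 combinations of these 8 rows, only this one, all 8 together, was whole in every heart. The divided reads thus added up within these 8 rows. The 3 further copies were chosen after the values were seen.

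The sum of the 5 PIR genes in control hearts was 29.3, 26.7, 27.5 and 33.5 CPM, in the order of hearts 1 to 4. In transferred hearts it was 65.9, 127 and 72.2 CPM, in the order of hearts 1 to 3. Every transferred heart was thus above every control heart, and transferred heart 2 stood above the other transferred hearts, at 1.93 times heart 1 and 1.77 times heart 3. The means were 29.3 ± 3.04 CPM (SD, n = 4) and 88.5 ± 33.9 CPM (SD, n = 3), a ratio of 3.02. With all 8 family rows, where divided reads add up, the means were 34.3 ± 3.79 CPM (SD, n = 4) and 102.8 ± 40.03 CPM (SD, n = 3), a ratio of 2.998. In bulk tissue, more cells of a type and more RNA per cell cannot be told apart.

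Pirb (3712505 to 3720382 on chromosome 7, GRCm38, minus strand), the inhibitory member, had the highest level. It was at 10.9, 8.38, 9.60 and 10.7 CPM in control hearts 1 to 4 and at 19.3, 40.6 and 26.02 CPM in transferred hearts 1 to 3. All transferred hearts were above all control hearts, and the lowest transferred value was 19.3 CPM against a highest control value of 10.9 CPM. Its log2 fold change was 1.54 with a standard error of 0.23.

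The PIR-A genes, which encode the activating receptors, were higher by nearly the same factor. Pira1 (3731626 to 3739943) was at 5.53, 5.27, 4.48 and 6.26 CPM in control hearts and at 13.1, 23.5 and 12.9 CPM in transferred hearts. Pira2 (3836808 to 3845104) was at 4.38, 4.76, 5.32 and 6.13 CPM in control hearts and at 12.98, 24.8 and 12.1 CPM in transferred hearts. Neither gene had overlapping groups, and in both genes transferred heart 2 was the highest. The log2 fold change was 1.62 (standard error 0.23) for Pira1 and 1.70 (standard error 0.26) for Pira2, although most of the sequence of these genes cannot be told apart.

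Gm14548 and Gm15448 are predicted protein-coding genes of the same array. Gm14548 (3884201 to 3898159) was at 5.56, 6.15, 5.38 and 7.92 CPM in control hearts and at 15.3, 27.7 and 13.9 CPM in transferred hearts, a log2 fold change of 1.61 (standard error 0.25). Gm15448 (3816663 to 3825760), the lowest PIR member, was at 3.01, 2.14, 2.74 and 2.57 CPM in control hearts and at 5.23, 10.8 and 7.37 CPM in transferred hearts, a log2 fold change of 1.57 (standard error 0.26). The groups overlapped in neither gene. Pirb and Gm15448 were higher in transferred heart 3 than in heart 1, whereas Pira1, Pira2 and Gm14548 were higher in heart 1.

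Lilra5 and Lair1, whose reads are not divided, differed by less. Lilra5 (4237643 to 4243690, plus strand) was at 7.49, 6.63, 6.14 and 7.004 CPM in control hearts and at 11.1, 14.7 and 7.81 CPM in transferred hearts, a log2 fold change of 0.72 (standard error 0.21). The groups did not overlap, but transferred heart 3 was just above the highest control heart. Lair1 (4007073 to 4073567, minus strand) was at 5.20, 4.43, 3.30 and 3.34 CPM in control hearts and at 8.91, 7.53 and 4.99 CPM in transferred hearts, a log2 fold change of 0.81 (standard error 0.25). Here the groups overlapped, since transferred heart 3 lay below control heart 1, and the order of the transferred hearts was not that of the PIR genes. Their summed level was 10.9 ± 1.37 CPM (SD, n = 4) in control hearts and 18.4 ± 4.93 CPM (SD, n = 3) in transferred hearts, a ratio of 1.69.

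**Figure D2:**
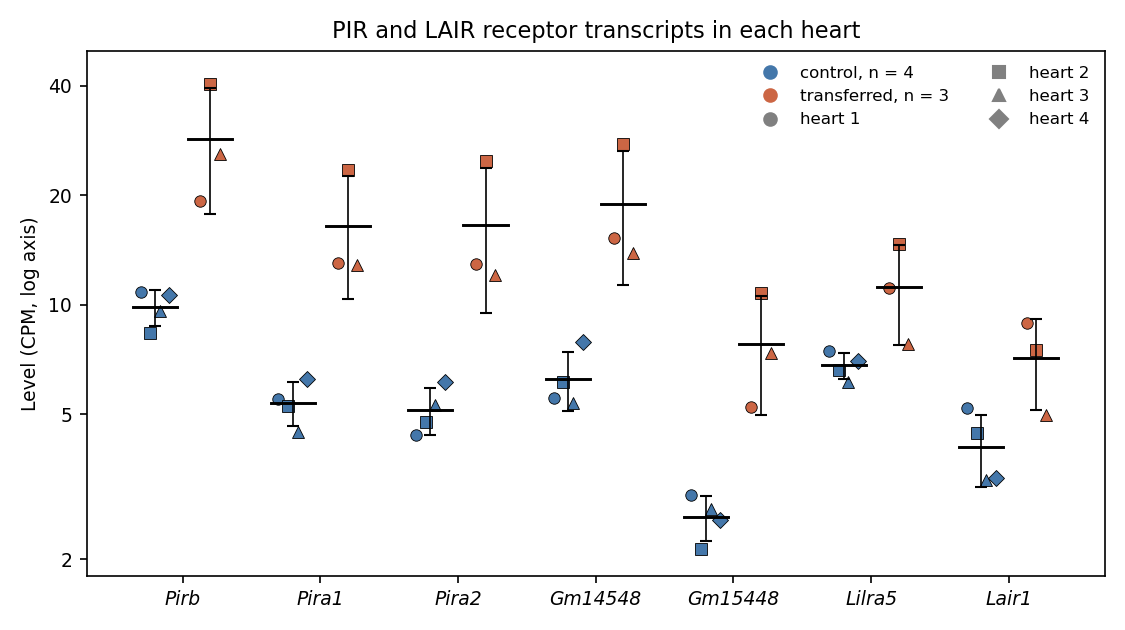
Level of each of the 7 receptor genes in each heart (CPM, log axis), with control hearts (n = 4) in blue and transferred hearts (n = 3) in orange and 1 symbol for each heart number. Horizontal lines are group means and error bars are ± 1 SD. For the 5 PIR genes and Lilra5 all transferred hearts lie above all control hearts, transferred heart 2 is highest in these 6 genes, and for Lair1 the groups overlap.

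In the edgeR quasi-likelihood fit over all 7667 tested genes, Pirb, Pira1, Pira2 and Gm14548 had an adjusted p-value of 0.0384 each, under the threshold of 0.05. The adjusted p-value was 0.0515 for Gm15448, 0.190 for Lilra5 and 0.221 for Lair1. The members called were thus 4 of 7, where 0.235% of all tested genes were called (0.13% as higher), and these same calls were among the values that chose the members. The 5 PIR rows also hold parts of the same divided reads, so their calls and fold changes are not separate results. All transferred hearts were above all control hearts in 6 of 7 members and in 6% of all tested genes. A positive log2 fold change was fitted for 7 of 7 members and for 49.7% of all tested genes. The median log2 fold change was 1.57 over the 7 members and -0.002 over all tested genes. No member was called when any 1 of the 4 control hearts or transferred heart 2 was left out, while 5 were called without transferred heart 1 and 6 without transferred heart 3. In all 7 of these fits all 7 members were higher in transferred hearts with an unadjusted p-value under 0.05. With all hearts, 7.17% of all tested genes were higher at this threshold. No member was called with limma-voom either.

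Per kilobase of combined exons, which allows levels of different genes to be set side by side, the order in control hearts was Pirb, Gm14548, Lilra5, Pira1, Pira2, Gm15448 and Lair1. Pirb stood at 3.61 ± 0.416 CPM per kb (SD, n = 4) and Lair1 at 0.916 ± 0.207 CPM per kb (SD, n = 4). Among neighbours in this order, Lilra5 and Pira1 did not overlap, with control hearts from 2.51 to 3.06 and from 1.27 to 1.77 CPM per kb, and neither did Pira2 and Gm15448. All other neighbouring pairs had overlapping control hearts. In transferred hearts Pirb was again first, at 10.5 ± 3.98 CPM per kb (SD, n = 3), Lair1 was last at 1.61 ± 0.448 CPM per kb (SD, n = 3), and Lilra5 was the fifth. For PIR genes these levels depend on how divided reads were shared out.

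The share of Pirb depended on which genes it was taken of. Of the counts of all 7 members, Pirb took a mean of 24.6% ± 1.76 (SD, n = 4) among the controls and of 26.8% ± 4.08 (SD, n = 3) after transfer, a difference of 2.17 percentage points. Pirb alone took 37.04%, 31.4%, 34.9% and 31.8% of the counts of the 5 PIR genes in control hearts 1 to 4 and 29.3%, 31.9% and 36.04% in transferred hearts 1 to 3. The groups overlapped, and the means were 33.8% ± 2.68 (SD, n = 4) and 32.4% ± 3.39 (SD, n = 3), a difference of -1.36 percentage points. The sign thus changed with the denominator, and neither difference exceeded the SD of its transferred group. Of the counts of all 7 members, Lilra5 took 17.8%, 17.6%, 16.6% and 15.96% in control hearts and 12.97%, 9.81% and 9.19% in transferred hearts, which did not overlap. The share of Lair1 was 10.2% ± 2.26 (SD, n = 4) against 7.09% ± 2.87 (SD, n = 3), with overlap.

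Markers of cells that can carry these receptors were also compared. All 15 listed macrophage and monocyte markers passed the filter and had a positive log2 fold change, with a median of 0.93, where 49.7% of all tested genes had a positive one. In the fit over all genes 2 of them rose, the mannose receptor gene Mrc1 and the complement gene C1qb, where 0.13% of all tested genes were called as higher. Neither was called with limma-voom or without transferred heart 2, which each gave 0 genes. The list holds Fcer1g, the partner of PIR-A, and none of the 15 was at 0. Their summed level ranged from 562 to 831 CPM in control hearts and from 986 to 1465 CPM in transferred hearts. Relative to this sum, the 5 PIR genes stood at 4.43%, 4.08%, 4.90% and 4.03% in control hearts 1 to 4 and at 4.82%, 8.70% and 7.33% in transferred hearts 1 to 3. Transferred heart 1 thus lay within the control range and the other transferred hearts lay above it. Lilra5 and Lair1 together stood at 1.63% ± 0.281 (SD, n = 4) of the marker sum in control hearts and at 1.43% ± 0.114 (SD, n = 3) in transferred hearts, with overlap.

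**Figure D3:**
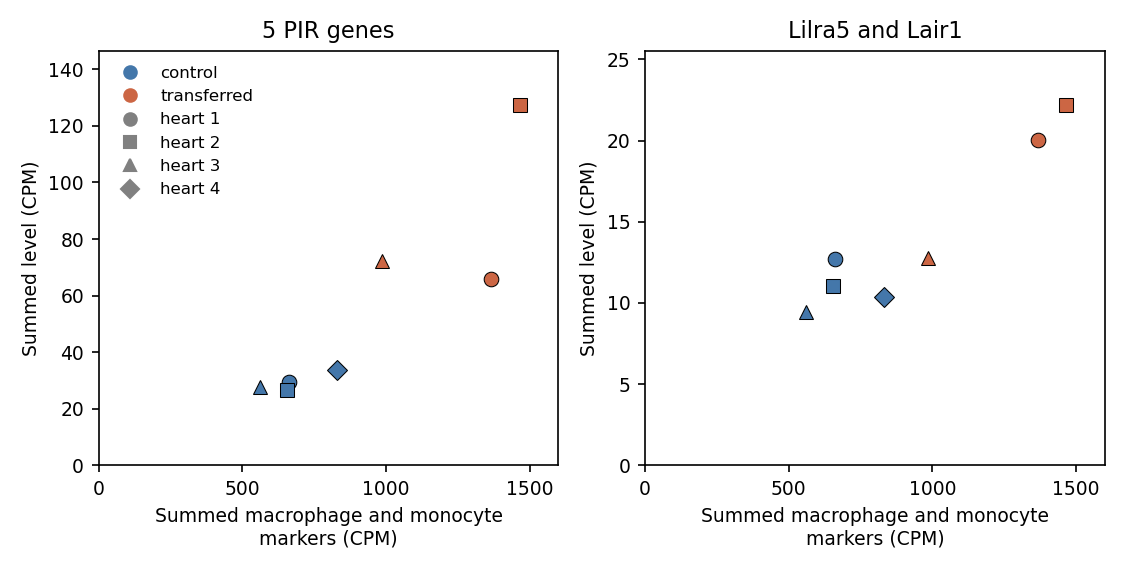
Summed level of the 5 PIR genes (left) and of Lilra5 and Lair1 (right) in each heart against the summed level of 15 macrophage and monocyte markers, all in CPM and on linear axes that start at 0, with 1 point for each heart. In the left panel transferred hearts 2 and 3 have more PIR transcript for their marker level than the control hearts, with 127 CPM at a marker sum of 1465 CPM in heart 2. In the right panel the receptors amount to between 1.25% and 1.92% of the marker sum in all 7 hearts.

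Neutrophils also carry PIR receptors, and 9 of 10 neutrophil markers passed the filter. All 9 had a positive log2 fold change (median 1.73), against 49.7% of all tested genes, and none was called. Their summed level was 31.6 to 60.1 CPM in control hearts. It was 56.6 CPM in transferred heart 1, within the control range, 362 CPM in transferred heart 2, where the PIR sum was also highest, and 84.2 CPM in transferred heart 3. The 5 PIR genes stood at 48.8% to 87.2% of the neutrophil sum in control hearts, and at 116%, 35.2% and 85.7% in transferred hearts 1 to 3. Dendritic cell markers summed to 6.24 to 7.48 CPM in control hearts and to 10.6 to 14.4 CPM in transferred hearts, and most of this difference came from 1 of the 5 genes, Clec4a2. Siglech, a marker of plasmacytoid dendritic cells, was at 2.54 CPM on average in control hearts and 1.69 CPM in transferred hearts, with overlap (log2 fold change -0.58, standard error 0.30). Itgax reached at most 1.19 CPM in any heart, and Flt3 and Clec9a stayed under the filter. All transferred hearts were above all control hearts for Itgax (log2 fold change 1.85, standard error 0.56, edgeR adjusted p = 0.216), which had 1 to 9.5 counts in control hearts. B cell markers summed to at most 0.423 CPM in any heart. Among the 4 endothelial markers, 1 fell, the water channel gene Aqp1, which was at 808, 861, 727 and 959.6 CPM in control hearts and at 489, 355 and 407 CPM in transferred hearts (log2 fold change -1.01, standard error 0.13, edgeR adjusted p = 0.0384). Tie1 was also lower in all transferred hearts than in all control hearts (log2 fold change -0.28, standard error 0.08, adjusted p = 0.185). The endothelial sum was 2724 to 3136 CPM in control hearts and 2307 to 2564 CPM in transferred hearts, without overlap, and most of this difference came from Aqp1. Kdr (log2 fold change -0.12, standard error 0.14) and Fabp4 (0.006, standard error 0.12) had overlapping groups. The part of macrophages, neutrophils, dendritic cells and endothelial cells in the difference between the groups was not tested.

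The machinery that the receptors signal through was listed as 13 genes, of which 11 were in the table, 10 were tested and none was called. With the threshold of 0.05 on unadjusted p-values, 6 of the 10 were higher and none was lower, against 7.17% of all tested genes that were higher in this way and 5.27% that were lower. Fcer1g, the gamma chain needed by PIR-A receptors, was at 14.9, 15.4, 16.7 and 16.8 CPM in control hearts and at 34.8, 33.96 and 22.3 CPM in transferred hearts, without overlap (log2 fold change 0.93, standard error 0.15, adjusted p = 0.0515). Ptpn6, which encodes the phosphatase SHP-1 recruited by inhibitory motifs, had a log2 fold change of 0.67 (standard error 0.15), whereas Ptpn11, which encodes the widely expressed phosphatase SHP-2, had one of -0.22 (standard error 0.11).

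Of 21 listed ligand genes, 17 were tested and 1 rose, C1qb of complement C1q, which can bind LAIR-1, where 0.13% of all tested genes were called as higher. This call was absent with limma-voom and without transferred heart 2, which each gave 0 genes. With unadjusted p-values at 0.05, 4 were higher and 2 were lower, where 7.17% of all tested genes were higher and 5.27% were lower. C1qb is also on the macrophage list. B2m, the light chain of class I molecules that PIR receptors bind, was at 355, 379, 389 and 445 CPM in control hearts and at 1556, 703 and 369 CPM in transferred hearts. The groups overlapped, and B2m was highest in transferred heart 1, whereas the PIR sum was highest in heart 2 (log2 fold change 1.16, standard error 0.44, adjusted p = 0.352). The classical class I heavy chains are encoded outside the analysed chromosomes. Col3a1, a collagen and thus a LAIR-1 ligand, had a log2 fold change of -0.12 (standard error 0.13), and Col1a2 one of -0.20 (standard error 0.19). The lower 2 were basement membrane collagens. Col4a3 was at 12.2, 14.1, 18.2 and 20.9 CPM in control hearts and at 10.8, 6.30 and 9.54 CPM in transferred hearts, without overlap (log2 fold change -0.88, standard error 0.23, adjusted p = 0.165). Col4a4 had a log2 fold change of -0.54 (standard error 0.24, adjusted p = 0.398), with overlap. For Angptl2, an angiopoietin-like ligand of PIR-B, it was 0.005 (standard error 0.09).

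Among the other receptor genes of the complex, 7 of 20 listed names were rows of the table. Of these, 3 passed the filter, namely Lilra6, Gm10693 and Gp6, the last of which is described further below. Lilra6 was at 2.25, 2.14, 2.55 and 3.09 CPM in control hearts and at 4.61, 10.8 and 5.94 CPM in transferred hearts, with a log2 fold change of 1.51 (standard error 0.30, adjusted p = 0.0702). The pseudogene Gm10693 had a log2 fold change of 1.30 (standard error 0.30), and the pseudogene Gm15925, which is on no list, one of 1.74 (standard error 0.39). Lilra6 and both pseudogenes share reads with the PIR genes, so their values are not separate from those of the members. Tarm1, Oscar and Nlrp2 stayed under the filter. Of 30 listed genes of the region that encode no such receptor, 27 were tested and none was called, with a median log2 fold change of -0.03 and a range from -0.80 to 0.21. All transferred hearts were below all control hearts in 2 of the 27, where this held for 5.22% of all tested genes, and above them in none. Rps9, a ribosomal protein gene that lies next to Pirb, had a log2 fold change of 0.21 (standard error 0.09).

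Receptors of myeloid cells encoded elsewhere, listed as inhibitory, were also described. The list also holds Pilrb1, Pilrb2 and Siglec1, which are not inhibitory, and Siglec1 is on the macrophage list too. The counts are therefore not of inhibitory receptors alone. Of 24 listed genes, 14 were tested and none was called. All 14 had a positive log2 fold change, with a median of 1.004, where 49.7% of all tested genes had a positive one. With unadjusted p-values, 10 of the 14 were higher at 0.05, against 7.17% of all tested genes. Cd72, an inhibitory C-type lectin, went from 2.04 CPM on average in control hearts to 7.77 CPM in transferred hearts (log2 fold change 1.92, standard error 0.35, adjusted p = 0.0572). Clec4a2, which encodes a lectin with an inhibitory motif and is also on the dendritic cell list, went from 3.95 to 9.09 CPM (log2 fold change 1.20, standard error 0.21, adjusted p = 0.0572).

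**Figure D4:**
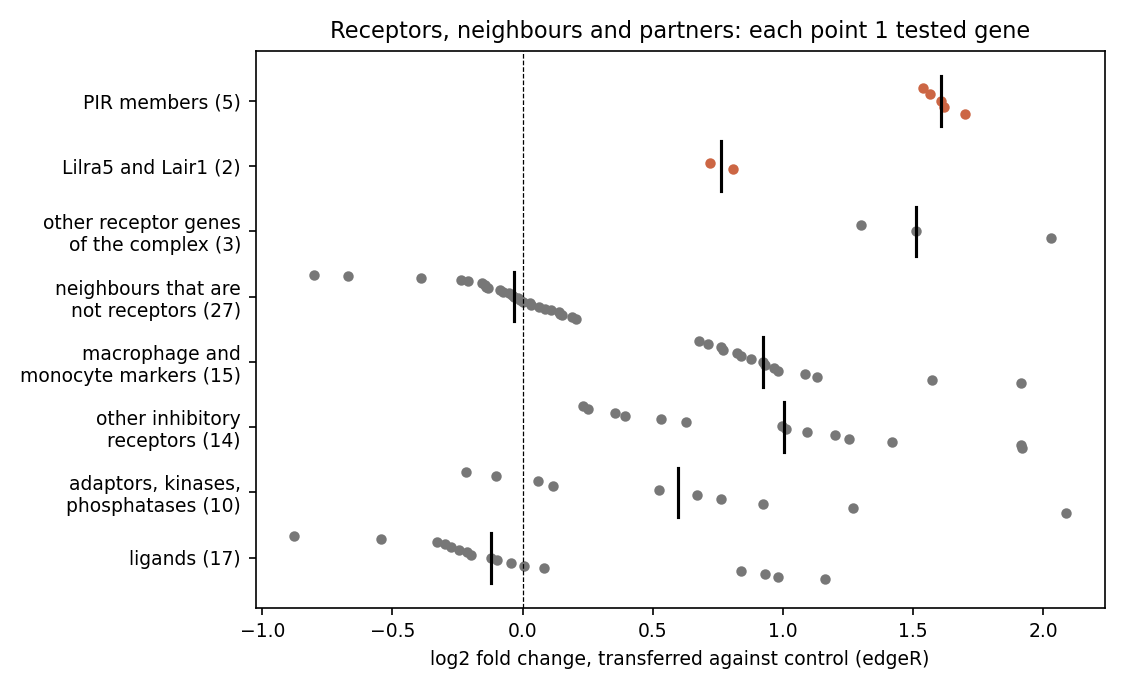
Fitted log2 fold changes of transferred against control hearts (edgeR), 1 point for each tested gene, for the PIR members, Lilra5 and Lair1, and 6 lists of related genes, with the number of tested genes in brackets and a vertical bar at the median. The 5 PIR genes lie between 1.54 and 1.70, and the 27 neighbours that are not receptors have a median of -0.03.

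Finally, the genes whose levels over the 7 hearts were most like the summed level of the 7 members were sought among 5730 genes with a mean of at least 5 CPM. The 8 with the highest Pearson r of log2 CPM were Rgs2, P2ry6, Vcam1, Ptpro, Clec4a2, Alox5ap, C5ar1 and Ptpn6, with r from 0.976 to 0.991. The next gene had an r of 0.972, so the limit at 8 genes is arbitrary. Rgs2, a regulator of G protein signalling, was at 47.8, 46.5, 47.4 and 49.9 CPM in control hearts and at 70.2, 97.4 and 78.1 CPM in transferred hearts. P2ry6 encodes a nucleotide receptor and C5ar1 the receptor for complement C5a. The hearts form separate groups, so this likeness is a description with no p-value, and it includes the difference between the groups. With the group means removed, r was between 0.864 and 0.988 for these 8 genes, highest for the adhesion molecule gene Vcam1, and 1 of them was still among the 8 most alike.

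The animal identifier in the labels starts with a number for 5 of the hearts. For the other two, which are the first heart of each group, it starts with letters. What the forms stand for is not stated. After the animal identifier, the label of transferred heart 2 also carries another letter code than those of transferred hearts 1 and 3. Its meaning is not given, and with 1 heart it cannot be told apart from that animal, in which 6 of the 7 members were highest. Between the pair with letters, the log2 ratio of the sum of the 5 PIR genes was 1.17, and among the 5 hearts whose identifiers start with a number it was 1.77. For Lilra5 and Lair1 together these ratios were 0.66 and 0.77. The direction was the same within both forms, although the pair with letters holds 1 heart of each group and allows no test. With the form as a covariate, or without the pair, 0 members were called by edgeR, and all 7 had an unadjusted p-value under 0.05 in both fits. In these fits 973 of 7667 and 1054 of 7760 tested genes passed 0.05 unadjusted, in either direction.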

How the data were processed

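RNA sequencing of 7 hearts was analysed from 1 table of counts for each gene. The authors deposited estimated counts that had not been normalized, 4.63% of them with a fractional part. Per the submitters' processing notes, the tools were bcl2fastq 2.20.0.422, cutadapt 2.5, STAR 2.7.2b, featureCounts 1.6.4 and DESeq2 1.22.2, on GRCm38.p6. The counting options and the use of strand are not given in the sources used here. The series design states paired reads of 75 nt and about 55 M reads for each sample. The table analysed held 20343 complete rows, up to the start of chromosome 8, and 1 unfinished row that was left out. Column totals, and the scaling made from them, cover this part only.

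Counts were rounded, filtered with filterByExpr, scaled by TMM and fitted with the robust quasi-likelihood test of edgeR 4.0.16 (R 4.3.3) over 7667 genes, with Benjamini-Hochberg adjustment. Standard errors were computed from the F statistic. Levels and sums used unrounded values. The code was tested on simulated counts. DESeq2 1.42.0, limma-voom (limma 3.58.1), other scalings and filters, and left-out hearts were the alternatives. Heart numbers follow accession order and pair nothing. Floors cover counting error only, since reads that carry no molecular identifier can be copies of 1 molecule.

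The 7 members and all lists were chosen with earlier results of these data known. Genes named are the 7 members, listed genes (2 or 3 with the smallest p-values of a list as examples, others for their role) and the 8 genes most like the summed members. Protein sequences were not used here. Some listed genes are not reported here.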

Additional observations from a re-analysis of the deposited data

Results flagged for a closer look

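Each result was checked in the 4 control hearts for 1 heart far from the other 3, by the gap to the nearest heart over the whole range, set against the critical value of Dixon's test. Of 75 results checked, 5 were past it, where chance gives 3.75. The summed PIR genes other than Pirb were at a log2 CPM of 4.52 in control heart 4, and the remaining control hearts lay between 4.16 and 4.21. C5ar1 was at 4.07 in control heart 4, against 3.70 to 3.73. Inpp5d, which encodes the phosphatase SHIP-1, was at 4.55 in control heart 4, against 3.90 to 3.96. Lyn, a Src family kinase, was at 6.22 in control heart 4, against 6.00 to 6.04. Ptpn11 was at 9.46 in control heart 3, against 9.80 to 9.87. Control heart 4 had the fewest counts of the 7 hearts and the highest summed macrophage and monocyte markers of the control hearts, 831 CPM.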

How the results depend on the processing

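All 7 members were higher in transferred hearts, with an unadjusted p-value under 0.05, in all 18 alternative fits. In the main fit 7.17% of all tested genes were higher in this way. The members were chosen on this comparison and the fits reuse the same hearts, so this is a description only. The log2 fold changes ranged from 1.20 to 1.89 for the PIR genes and from 0.48 to 1.01 for Lilra5 and Lair1. Calls were less stable, and the cause was not tested. Of the 18 fits, 10 called at least 4 members and 8 called none. Against 4 members and 18 genes called, limma-voom, the identifier form as a covariate, and leaving out the pair with letters each gave 0 members and 0 genes. Their genes with an unadjusted p-value under 0.05 numbered 907, 973 and 1054. Total count scaling gave 35 genes, all genes with at least 1 count 81 and DESeq2 252, and each called 5 members. Leaving out 1 heart gave from 0 to 140 genes and from 0 to 6 members, and in the fits with 0 genes 658 to 831 genes passed 0.05 unadjusted. The log2 ratio of the summed 7 members, 1.41, was 0.75 for Lilra5 and Lair1 alone and between 1.09 (without transferred heart 2) and 1.55 when 1 heart was left out. With the 8 family rows, a sum chosen after seeing the data, it was 1.58. Of the 8 most alike genes, from 3 to 6 were among the first 8 when 1 heart was left out. The difference in the share of Pirb was 2.17 percentage points of the 7 members and -1.36 of the 5 PIR genes. Spearman rho ties many genes over 7 hearts and ranks no first 8 among them, with Ptpro at its maximum of 1. No paired analysis was possible because the titles of the groups share only 1 number. Levels under 0.115 CPM rest on fewer than 3 counts in any heart. Tarm1 and Oscar were removed by the filter on low counts and not tested.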

Other observations

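Gp6, the platelet collagen receptor gene, lies in the same complex and followed another order of hearts than the PIR genes. It had 6, 5, 31 and 2 counts in control hearts 1 to 4 and 60, 55.5 and 6 counts in transferred hearts 1 to 3. Control heart 3 was thus above transferred heart 3. The summed platelet and megakaryocyte markers, a list that holds Gp6 itself, were at 22.2, 25.4, 39.3 and 23.3 CPM in control hearts and at 113, 149 and 28.02 CPM in transferred hearts. The fitted log2 difference of Gp6 was 2.03 (standard error 0.82, edgeR adjusted p = 0.356).

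The 5 mast cell markers differed among themselves. Their summed level was 53.2 to 63.4 CPM in control hearts and 41.8 to 62.8 CPM in transferred hearts, with overlap. Most of this sum in every heart was Gata2, which ranged from 27.9 to 41.4 CPM with overlapping groups. Kit, the stem cell factor receptor gene, lay between 12.06 and 18.2 CPM in control hearts and between 5.73 and 9.73 CPM in transferred hearts. Its fitted log2 difference was -0.75 (standard error 0.22, edgeR adjusted p = 0.201). Cpa3, a mast cell protease gene, had a fitted log2 difference of -1.36 (standard error 0.48, edgeR adjusted p = 0.292), with overlap. Hdc, which encodes the enzyme that makes histamine, was at 5.64, 6.07, 6.10 and 5.36 CPM in control hearts and at 7.60, 15.9 and 6.32 CPM in transferred hearts, highest in heart 2 as the PIR genes were. Its fitted log2 difference was 0.78 (standard error 0.29, edgeR adjusted p = 0.305).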
